A study of Homo sapiens with 4 samples.

Results

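The genes described here were the clustered histone genes, taken as every gene whose symbol in the count files starts with HIST1, HIST2, HIST3 or HIST4. The rule gave 47 of the 16370 genes listed in any library, with 5 genes of class H1, 10 of H2A, 14 of H2B, 10 of H3 and 8 of H4. Reads per gene were counted in 4 libraries, 1 for each cell line. Hep3B and Huh7 are established human hepatoma lines and form the HCC group, and the stem-like cultures derived from them, Hep3B-C and Huh7-C, form the HCSC group (hepatic cancer stem cells). The study compared each HCSC line with its parental line, and neither the labels nor the study's description of the sequenced lines used here gave a further genotype or treatment. With 1 library per line there was no replicate of any culture, so a test on a pair compared the libraries and covered sampling noise only. In bulk RNA, a change in the share of cells of one kind and a change in RNA per cell cannot be told apart.

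Histones H2A, H2B, H3 and H4 form the protein core around which DNA is wound, and H1 binds the linker DNA between these particles. Most clustered histone genes are transcribed in S phase, when newly made DNA has to be packaged, and their messages usually end in a short stem-loop bound by SLBP instead of a poly(A) tail. Some of the genes also give polyadenylated messages, mostly outside S phase, while replacement histones such as H2A.Z and H3.3 come from genes elsewhere in the genome that are expressed through the cell cycle.

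The 3′ stem-loop is shown because it sets these messages apart from other mRNAs. In the GENCODE 29 transcripts, 23 of the 47 genes (48.9%) held a match to it, against 50 of 19669 protein-coding genes (0.254%). Many of the other reference transcripts held the coding part only, so no match says only that these letters were not in that transcript. The 3 most common forms are given 5′ to 3′, with the paired stem in capitals and the loop in lower case.
Form in 12 genes of H2A, H2B and H3: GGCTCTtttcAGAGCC
Form in 4 genes of H2B and H3: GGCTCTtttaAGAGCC
Form in 4 genes of H4: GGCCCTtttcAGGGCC
In 18 of the 23 genes an annotated transcript ran on for at least 100 bases after the stem-loop, and in 5 every transcript with a match ended within 100 bases. Whether the libraries were made from poly(A)-selected RNA was not given in the sources used here.

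The proximal promoters of HIST1H2BK, HIST1H2BD, HIST1H1C and HIST1H1E, H2B and H1 genes described below, are shown next, as the 150 bases before the transcription start in the RefSeq annotation of GRCh38.p14. Capitals mark matches, on either strand, to the octamer ATTTGCAT, the TATA box TATAAA, the CCAAT box CCAAT and the H1 box AAACACA, and no matches overlap in these stretches.
HIST1H2BK, chr6:27146859-27147008, minus strand: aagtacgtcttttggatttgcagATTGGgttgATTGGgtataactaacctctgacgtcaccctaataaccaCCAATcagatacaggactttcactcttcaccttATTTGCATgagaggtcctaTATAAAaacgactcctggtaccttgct
HIST1H2BD, chr6:26157971-26158120, plus strand: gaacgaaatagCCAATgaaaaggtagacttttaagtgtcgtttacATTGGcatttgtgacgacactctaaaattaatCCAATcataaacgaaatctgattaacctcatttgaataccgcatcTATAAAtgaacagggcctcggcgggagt
HIST1H1C, chr6:26056471-26056620, minus strand: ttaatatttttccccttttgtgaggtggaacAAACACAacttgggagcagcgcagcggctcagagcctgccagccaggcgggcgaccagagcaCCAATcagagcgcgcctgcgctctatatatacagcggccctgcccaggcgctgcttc
HIST1H1E, chr6:26156179-26156328, plus strand: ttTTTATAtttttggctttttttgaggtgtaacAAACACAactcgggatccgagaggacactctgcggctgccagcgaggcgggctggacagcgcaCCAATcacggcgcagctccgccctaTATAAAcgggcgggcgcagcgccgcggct
HIST1H2BK held the octamer 46 bases and the TATA box 27 bases before its start, whereas HIST1H2BD held a TATA box 28 bases before its start and no octamer. HIST1H1C and HIST1H1E held the H1 box 119 and 117 bases before their starts. In windows from 250 bases before to 50 after the start, the octamer was present in 10 of 14 H2B and 7 of 9 H2A promoters, in 1 of 8 H3 promoters and in none of the 5 H1 or 7 H4 promoters, against 1.77% of 35116 promoters. The H1 box was present in 5 of 5 H1 promoters and 1 of 9 H2A promoters, and in none of the H2B, H3 or H4 promoters, against 5.64% of all. The CCAAT box was in 37 of the 43 promoters with an entry and the TATA box in 27, against 34.6% and 11.5% of all, and CCAAT was in 1 of the 7 H4 promoters. A match describes letters and says nothing of binding.

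In the GENCODE 29 annotation of GRCh38, 39 of the genes lay on chromosome 6 between positions 26017085 and 27893843, 7 on chromosome 1 and 1 on chromosome 12. The reads had been aligned to an NCBI build of the genome older than GRCh38, so these positions describe the genes and not the alignment.

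The summed gene counts were 2896418 in Hep3B and 4641927 in Hep3B-C, and 4537510 in Huh7 and 4333808 in Huh7-C. A count of 0 allows a level of up to 0.646 to 1.04 CPM (counts scaled to a common library total) in the 4 libraries, which covers counting error only. The Hep3B pair listed 36 of the histone genes and the Huh7 pair 38, with 27 in both. A gene appeared in the files of a pair only if it had at least 1 count there. All 7 hepatocyte markers tested were detected in every library, with summed levels of 19001 to 52101 CPM. Of 7 markers of fibroblasts, immune cells and endothelium, 5 were measured in some library, and their summed level was 115 to 283 CPM. Of these 5, all had a count in Hep3B and 4 had one in each of the other libraries, and most of the counts were of CD68. Of the stem-like markers PROM1, EPCAM, THY1, CD24 and KRT19, THY1 had 1 count in Huh7-C and none elsewhere, and the summed level of the 5 was 2652 CPM in Hep3B and 490 in Hep3B-C, and 1091 in Huh7 and 458 in Huh7-C. CD24 made up most of these counts in Hep3B, Huh7 and Huh7-C, and 217 of the 490 CPM in Hep3B-C. Without CD24 the sum of the other 4 was lower in Hep3B-C than in Hep3B (273 against 959 CPM) and close in Huh7-C and Huh7 (70.8 against 68.5 CPM).

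Clustered histone genes gave few reads. They were given 152 counts in Hep3B and 421 in Hep3B-C, and 359 in Huh7 and 216 in Huh7-C. Their summed level was 52.5 CPM in Hep3B (95% exact binomial interval 44.5 to 61.5) and 90.7 in Hep3B-C (82.2 to 99.8). In the Huh7 pair it was 79.1 in Huh7 (71.1 to 87.7) and 49.8 in Huh7-C (43.4 to 56.9). The order of the sums was Hep3B-C, Huh7, Hep3B and Huh7-C. The intervals of Hep3B-C and Huh7 overlapped, as did those of Hep3B and Huh7-C, and both of the first were above both of the last. The sum was thus higher in the HCSC line of the Hep3B pair and lower in that of the Huh7 pair.

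A few genes carried the sums. Only 7 of the 47 genes reached 10 counts in any library, 8 had a highest count of 4 to 9, and 32 had at most 3 counts in each library. HIST1H1C, HIST1H2AC, HIST1H2BD, HIST1H2BK, HIST1H4C and HIST2H2BE together held 67.1%, 90.0%, 88.6% and 82.9% of the histone counts in Hep3B, Hep3B-C, Huh7 and Huh7-C. The other 41 genes together had 50, 42, 41 and 37 counts in Hep3B, Hep3B-C, Huh7 and Huh7-C. For these 41 the log2 ratio of summed counts was -0.93 in Hep3B-C (95% interval -1.56 to -0.31) and -0.08 in Huh7-C (-0.76 to 0.60). TMM library sizes, an alternative to the total gene count, add 0.596 to the value in Hep3B-C, and its interval then holds 0. The plot of single genes by cell line shows the spread of the leading genes.

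**Figure D1:**
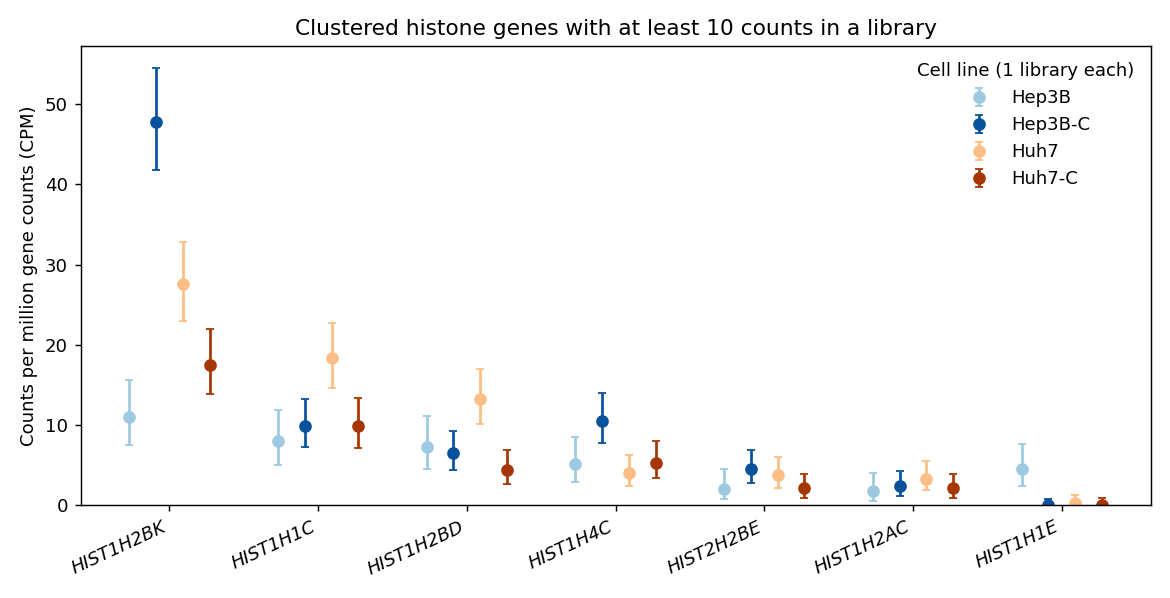
Levels in CPM of the 7 clustered histone genes that reached 10 counts in at least 1 library, 1 point for each of the 4 cell lines, with 95% exact Poisson intervals that cover counting error only. HIST1H2BK in Hep3B-C stands highest at 47.8 CPM, and HIST1H1E lies near 0 in every line but Hep3B.

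H2B was the class with the most counts and the one with the largest differences in CPM between the lines. Its level was 24.9 CPM in Hep3B and 61.6 in Hep3B-C, and 47.8 in Huh7 and 24.9 in Huh7-C, and it made up 47.4%, 67.9%, 60.4% and 50% of the histone counts in that order. In Hep3B-C the H2B sum was 2.48 times that in Hep3B (95% conditional interval 1.91 to 3.26). In Huh7-C it was 0.521 times that in Huh7 (0.41 to 0.659). The 2 intervals lay on opposite sides of 1. With GC and length trends removed, however, the H2B sum had log2 ratios of -0.17 for Hep3B-C and -0.67 for Huh7-C, on the same side. For 33 of the 47 histone genes the GC content came from a transcript within 20% of the length in the files. HIST1H2BK, with most H2B counts in Hep3B-C, was not among them, at 381 against 820 bases. The intervals above cover counting error only, and since the genes were chosen with earlier results of these data known, no p is given for a sum.

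H1, the linker histone class, was lower in Huh7-C than in Huh7, and its direction in Hep3B-C depended on the scaling. Its level was 14.2 CPM in Hep3B and 9.91 in Hep3B-C, and 18.5 in Huh7 and 10.4 in Huh7-C. The log2 ratio was -0.51 in Hep3B-C (-1.15 to 0.13) and -0.83 in Huh7-C (-1.39 to -0.30), so the interval excluded 0 in the Huh7 pair and held it in the Hep3B pair. In Hep3B-C the log2 ratio was 0.08 under TMM library sizes, 0.25 with the total reads listed by the study and -2.29 with GC and length trends removed. Without HIST1H1C it was 1.07 in Huh7-C, where HIST1H1B and HIST1H1D had 1 count each, against 1 count of HIST1H1E in Huh7. H4 had 6.91 CPM in Hep3B and 11.8 in Hep3B-C, and 3.97 in Huh7 and 6.46 in Huh7-C. Its log2 ratios of 0.78 (0.02 to 1.60) and 0.70 (-0.20 to 1.64) were above 0 in both pairs, with an interval that excluded 0 in the Hep3B pair alone. In Hep3B-C the H4 log2 ratio was 1.37 under TMM library sizes, -0.11 with GC and length trends removed and -0.42 without HIST1H4C. In Huh7-C it was 1.17 with GC and length trends removed.

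H2A and H3, whose proteins sit beside H2B and H4 in the same particle, showed no difference that these counts could resolve. H2A had 16, 29, 35 and 26 counts in Hep3B, Hep3B-C, Huh7 and Huh7-C, and its log2 ratios were 0.18 (-0.75 to 1.16) in Hep3B-C and -0.36 (-1.15 to 0.41) in Huh7-C. H3 had 3, 5, 5 and 9 counts, and its log2 ratios of 0.06 (-2.30 to 2.74) and 0.91 (-0.82 to 2.84) had intervals wide enough to hold large changes in either direction. None of the 10 H3 genes reached 4 counts in any library.

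**Figure D2:**
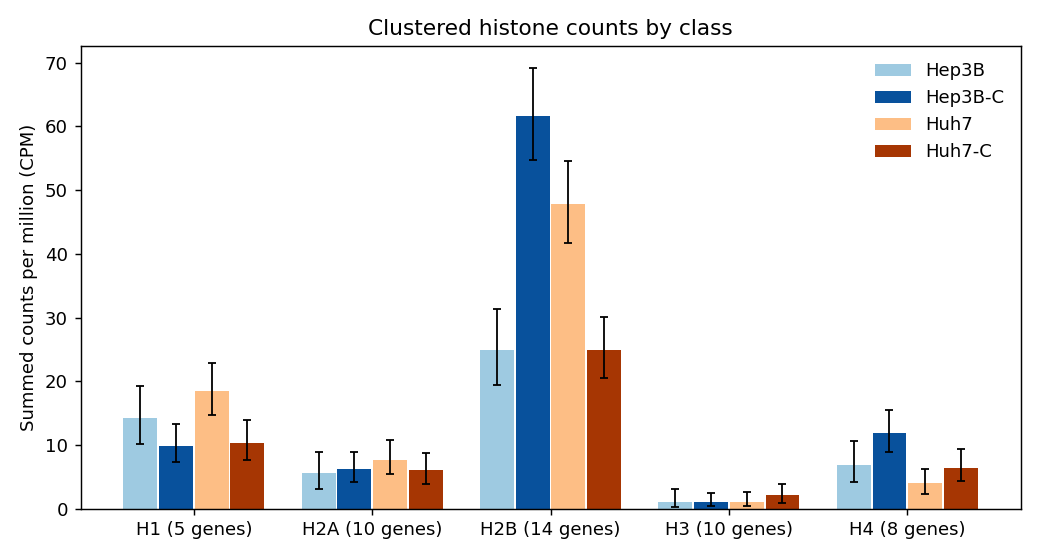
Summed level of each histone class in CPM in the 4 cell lines, with 95% exact binomial intervals that cover counting error only. H2B is the highest class in every line, at 61.6 CPM in Hep3B-C and 47.8 CPM in Huh7.

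**Figure D3:**
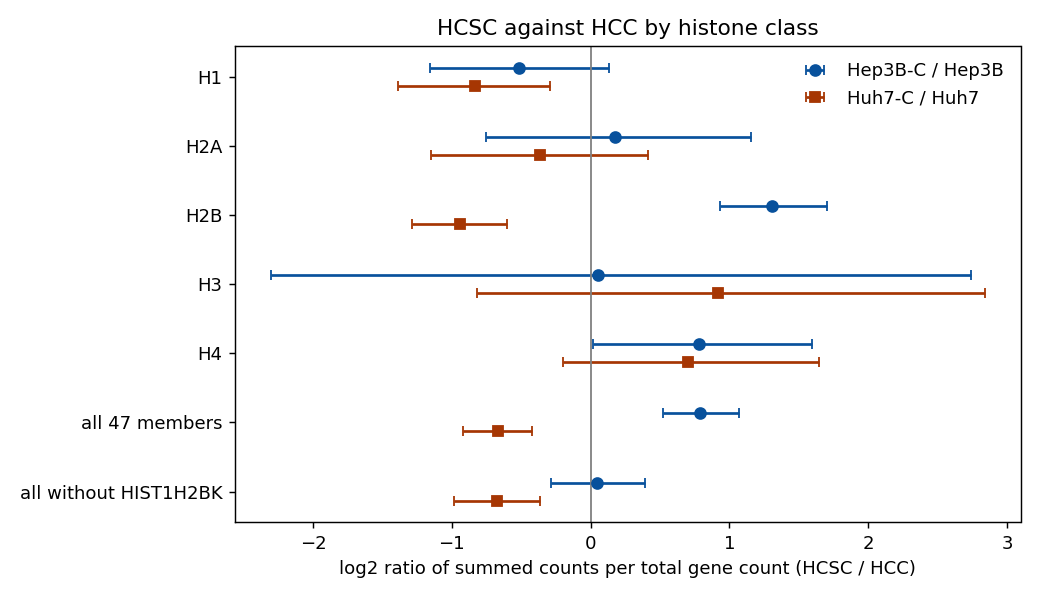
Log2 ratio of summed counts, HCSC over HCC, for each class, for all 47 genes and for the 46 without HIST1H2BK, in the Hep3B and Huh7 pairs, with 95% conditional counting intervals. H2B lies at 1.31 in the Hep3B pair and at -0.94 in the Huh7 pair, on opposite sides of 0 before any correction for GC and length.

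Single genes were tested on each pair with the Audic-Claverie test over all its genes, with Benjamini-Hochberg adjustment (FDR). Calls needed an FDR no higher than 0.01 together with a log2 fold change of 1 or more in size, after 0.5 was added to each count. In Hep3B-C against Hep3B, 1 of the 36 listed histone genes was called up, where 13.2% of all 15480 genes were, and 2 were called down, where 30.4% of all genes were. In Huh7-C against Huh7, 0 of 38 were called up, where 4.19% of 14807 genes were, and 1 was called down, where 4.15% were. None of the 27 histone genes listed in both pairs was called in both. The share of all genes called in both was not computed, so this count says nothing particular to histone genes. With an assumed biological coefficient of variation of 0.4 in place of sampling noise alone, none of these 4 calls held.

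HIST1H2BK, on chromosome 6 (27146418 to 27146798, minus strand), encodes an H2B protein and was the gene called up. It had 32 counts in Hep3B and 222 in Hep3B-C, and 125 in Huh7 and 76 in Huh7-C, or 11.0, 47.8, 27.5 and 17.5 CPM. The Hep3B-C library stood above the other 3 and Hep3B was the lowest. In Hep3B-C the log2 fold change was 2.09 (SE 0.27, FDR 5.2e-19 by the Audic-Claverie test), a ratio of 4.33. In Huh7-C it was -0.65 (SE 0.21, FDR 0.007), below the fold threshold. Of the 36-base stretches of its reference transcript, 40.2% also occurred in another clustered histone gene, so reads could not always be told apart between them. That transcript had 381 bases, against 820 in the files, so the rest of the counted gene was not examined. How reads with several matches were counted was not given in the sources used here.

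With counts scaled by the total gene count, the rise of the sum in Hep3B-C rested on this gene. Without HIST1H2BK the other 46 genes had 120 counts in Hep3B and 199 in Hep3B-C, a log2 ratio of 0.05 (-0.29 to 0.39) in place of 0.79 (0.52 to 1.07). The other 13 H2B genes had a log2 ratio of -0.0024 in Hep3B-C. TMM library sizes add 0.596 to each of these Hep3B-C ratios. The ratio of the other 46 genes and its interval then lie above 0, so the dependence on HIST1H2BK holds for the total gene count only. In the Huh7 pair, the other 46 genes had 234 and 140 counts in Huh7 and Huh7-C, a log2 ratio of -0.67 (-0.99 to -0.37), the same to 2 decimals as with the gene (-0.67, interval -0.92 to -0.42).

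HIST1H2BD, a further H2B gene on chromosome 6 (26158146 to 26171349, plus strand), was the gene called down in Huh7-C. It had 21 counts in Hep3B and 30 in Hep3B-C, and 60 in Huh7 and 19 in Huh7-C, or 7.25, 6.46, 13.2 and 4.38 CPM. Huh7 stood above the other 3 libraries. The log2 fold change was -1.57 in Huh7-C (SE 0.38, FDR 4.3e-05 by the Audic-Claverie test) and -0.18 in Hep3B-C (SE 0.41), and the latter changed sign when library sizes were scaled by TMM (0.42).

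HIST2H2BE, an H2B gene of the chromosome 1 cluster, had 6, 21, 17 and 9 counts in Hep3B, Hep3B-C, Huh7 and Huh7-C. It was not called, with log2 fold changes of 1.05 (SE 0.65) in Hep3B-C and -0.82 (SE 0.58) in Huh7-C. HIST2H2BF had 6 counts in Hep3B and 0 in Hep3B-C and was not listed in the Huh7 pair. It was at least 3.21-fold lower in Hep3B-C, against a floor of 3 counts per library and with its count in Hep3B taken as exact (95% interval of the ratio up to 0.53), and was called down (FDR 0.0045 by the Audic-Claverie test), a call that was lost under TMM library sizes. The 4 H2B genes with a length over 800 bases in the files, HIST1H2BD, HIST1H2BK, HIST2H2BE and HIST2H2BF, held 65 of 72, 273 of 286, 202 of 217 and 104 of 108 H2B counts in Hep3B, Hep3B-C, Huh7 and Huh7-C. The 10 shorter H2B genes together had 7, 13, 15 and 4 counts.

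Among the linker histones, HIST1H1C (chromosome 6, 26055787 to 26056428, minus strand) had 23, 46, 83 and 43 counts in Hep3B, Hep3B-C, Huh7 and Huh7-C, or 7.94, 9.91, 18.3 and 9.92 CPM. Huh7 again stood above the other 3. The log2 fold change was 0.30 in Hep3B-C (SE 0.37, FDR 0.53 by the Audic-Claverie test) and -0.87 in Huh7-C (SE 0.27, FDR 0.004), which missed the fold threshold. In Hep3B-C the gene was called down with GC and length trends removed (-1.48) and called up with the total reads listed by the study (1.07). No 36-base stretch of its transcript was shared with another clustered histone gene.

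HIST1H1E, another linker histone (chromosome 6, 26156354 to 26157107, plus strand), had 13 counts in Hep3B and 0 in Hep3B-C, and 1 in Huh7 and 0 in Huh7-C. Most of its counts were thus in the Hep3B library. It was at least 6.94-fold lower in Hep3B-C than in Hep3B, against a floor of 3 counts per library and with its count in Hep3B taken as exact, and was called down (FDR 7.4e-06 by the Audic-Claverie test). With the counting error of both libraries, the 95% interval of the ratio reached up to 0.205. HIST1H1A had 5 counts in Hep3B and 0 in Hep3B-C, at least 2.67-fold lower on the same floor with an interval up to a ratio of 0.681, and was not called (FDR 0.011). HIST1H1B had 1 count, in Huh7-C.

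HIST1H4C (chromosome 6, 26103876 to 26104310, plus strand) held most H4 counts, with 15 in Hep3B and 49 in Hep3B-C, and 18 in Huh7 and 23 in Huh7-C. Hep3B-C was the highest and the other 3 libraries lay between 3.97 and 5.31 CPM. It was not called, with log2 fold changes of 0.99 in Hep3B-C (SE 0.42, FDR 0.027 by the Audic-Claverie test) and 0.41 in Huh7-C (SE 0.45, FDR 0.66). Without it, the H4 log2 ratio in Hep3B-C was -0.42. The next H4 genes, HIST1H4E, HIST1H4I and HIST4H4, had at most 3 counts in a library.

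The leading H2A gene, HIST1H2AC, had 5, 11, 15 and 9 counts in Hep3B, Hep3B-C, Huh7 and Huh7-C, with log2 fold changes of 0.38 (SE 0.75) and -0.64 (SE 0.59) in the HCSC lines. HIST1H2AM had 1, 8, 5 and 1 counts, HIST3H2A 4, 1, 7 and 6, and HIST2H2AC 4, 3, 0 and 3, and none of these was called. The 4 leading H3 genes were HIST1H3J with 0, 2, 1 and 3 counts, HIST1H3E with 1, 0, 2 and 0, HIST1H3H with 1, 0, 1 and 0, and HIST1H3B with 1 count in each line of the Hep3B pair. These values cannot be told apart at this depth.

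When both pairs were fitted together with edgeR's quasi-likelihood test and the parental line as a block, 6 histone genes passed the filter on low counts. None was called at an FDR of at most 0.05, where 0.077% of 11691 genes were, and none had an unadjusted p under 0.05. DESeq2 called none of the histone genes either, where it called 15 of all 16370 genes. It gave an adjusted p for 2 of the 47 histone genes, and none had an unadjusted p under 0.05. The fit had 1 residual degree of freedom, so a miss says little about a shared change.

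Gene length and library scaling moved with these values. Among genes with at least 10 counts in the pair, the median over the 7 histone genes was a log2 fold change of 0.38 in Hep3B-C, with 5 above 0, against -0.60 for all 12383 genes. In Huh7-C their median was -0.65, with 1 of 7 above 0, against 0.06 for 11951 genes. Other genes shorter than 900 bases had a median of 0.66 in Hep3B-C (507 genes) and -0.30 in Huh7-C (495 genes), on the same side of 0 as the histone genes in each pair. The median length of all 47 histone genes was 467 bases, whereas the 7 genes of each pair ran from 390 bases (HIST1H4C) to 2223 (HIST2H2BE). With GC and length trends removed, HIST1H2BK had a log2 fold change of 0.10 in Hep3B-C and was no longer called, and with the length trend alone it had 1.04 and was called. Its GC content came from a coding transcript of 381 bases, against 820 bases in the files. The plot of fold change by gene length sets the 7 genes against these medians.

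Scaling by TMM added 0.596 to every log2 fold change in Hep3B-C and -0.041 in Huh7-C. Under it, 21.63% of all genes were called up and 18.08% down in Hep3B-C. HIST1H4C was then called up beside HIST1H2BK. The part of length, GC content and scaling in the histone results was not tested.

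**Figure D4:**
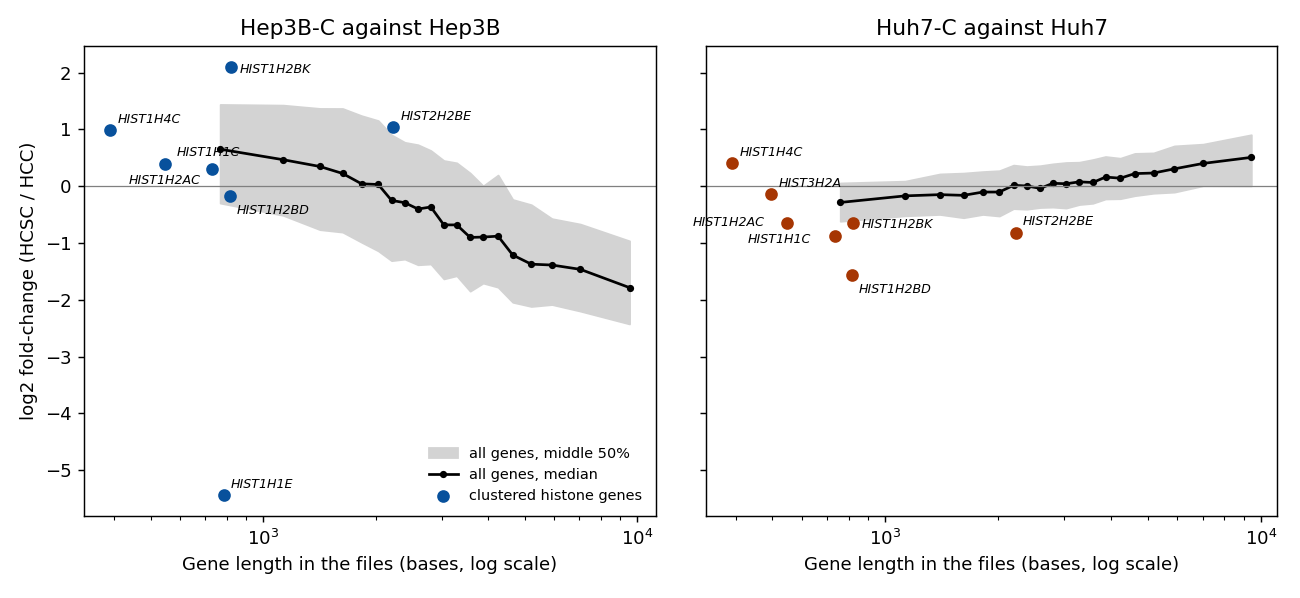
Log2 fold change, HCSC over HCC, against gene length in the files (log scale), with the histone genes of at least 10 counts in the pair as points and the median and middle 50% of all such genes in 20 length bins as line and band. HIST1H1E in the Hep3B pair was at 0 counts in Hep3B-C, so its point depends on the 0.5 added. HIST1H2BK in Hep3B-C lies above the band of genes of its length.

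The machinery that makes histone messages was measured with many more reads. Of 22 measured genes of histone transcription and mRNA processing, 2 were called up and 5 down in Hep3B-C (median -0.46) and 2 up and 0 down in Huh7-C (median 0.34). Over all genes, 13.2% were called up and 30.4% down in the Hep3B pair, against 4.19% and 4.15% for the Huh7 pair, with medians of -0.60 and 0.06, and the counts of this list and the lists that follow stand beside these shares. NPAT, the coactivator of histone gene transcription in S phase, had 91, 33, 50 and 114 counts in Hep3B, Hep3B-C, Huh7 and Huh7-C. It fell in Hep3B-C (log2 fold change -2.13, FDR 1.2e-14) and rose in Huh7-C (1.25, FDR 1e-06). CASP8AP2 (FLASH), which acts in histone gene expression and 3′ processing, had 367, 82, 30 and 58 counts and likewise fell in Hep3B-C (-2.84, FDR 9.9e-78) and rose in Huh7-C (1.01, FDR 0.007), all by the Audic-Claverie test. Both are long genes, of 5937 and 6762 bases, and with GC and length trends removed their log2 fold changes in Hep3B-C were -0.66 and -1.29 and those in Huh7-C 0.99 and 0.70, beside -0.58 and -0.34 for the summed histone counts under the same setting.

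SLBP, which binds the stem-loop, had 332, 419, 292 and 352 counts and was not called, with log2 fold changes of -0.35 in Hep3B-C and 0.34 in Huh7-C. The first changed sign under TMM library sizes (0.25). Of 19 measured S phase genes, 4 were called up (MCM2, MCM5, MCM7 and TK1) and 2 down (RFC4 and GINS1) in Hep3B-C. In Huh7-C, 3 were called up (MCM7, POLA1 and RFC3) and 0 down. MCM7, a subunit of the replicative helicase, was called up in both pairs, with log2 fold changes of 1.37 and 1.08. With GC and length trends removed, the log2 fold changes in Hep3B-C were 0.37 for MCM7, 0.58 for MCM2, 0.22 for MCM5 and 0.07 for TK1, all under the threshold of 1. Those of the genes called down were then -1.37 for RFC4 and -0.41 for GINS1. Histone chaperones, which carry histones to and from DNA, had 0 up and 6 down of 16 in Hep3B-C and 1 up and 0 down in Huh7-C, with medians of -0.51 and 0.63, and the share down in Hep3B-C was near that of all genes.

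Replacement and solitary histones are made from genes outside the clusters, and H2AFZ, H3F3B and H1F0 had more counts per length than the clustered genes of their class. Poly(A) selection and the handling of reads with several matches were not given. Their part in the lower clustered values was not tested. H2AFZ, which encodes H2A.Z, had 89.7 RPKM (CPM per kilobase of gene length) in Hep3B and 200.4 in Hep3B-C, and 195 in Huh7 and 267 in Huh7-C, whereas the 10 clustered H2A genes summed to 11.1, 12.3, 15.1 and 11.8 RPKM. H3F3B, which encodes H3.3, had 63.7, 83.2, 42.4 and 45.2 RPKM, against 2.21, 2.35, 2.42 and 4.18 RPKM for the 10 clustered H3 genes. H1F0, the linker histone of differentiated cells, had 214, 35.1, 166 and 112.5 RPKM, against 18.8, 13.5, 25.3 and 14.1 RPKM for the clustered H1 genes. Each of these 3 genes stood above the clustered sum in all 4 libraries, which did not hold for every gene of the list. H3F3C had at most 0.98 RPKM, below the clustered H3 sum.

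Of 11 measured genes of this list, 4 were called up in Hep3B-C, namely H2AFX (log2 fold change 2.23), H2AFJ (1.78), H1FX (1.45) and H2AFZ (1.16), and H1F0 was called down (-2.61). In Huh7-C none was called in either direction. With GC and length trends removed, H2AFJ kept a log2 fold change over 1 in Hep3B-C (2.57), whereas H2AFX (0.23), H2AFZ (0.75) and H1FX (-0.64) did not. The plot of replacement and clustered histone levels shows both sets per length.

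**Figure D5:**
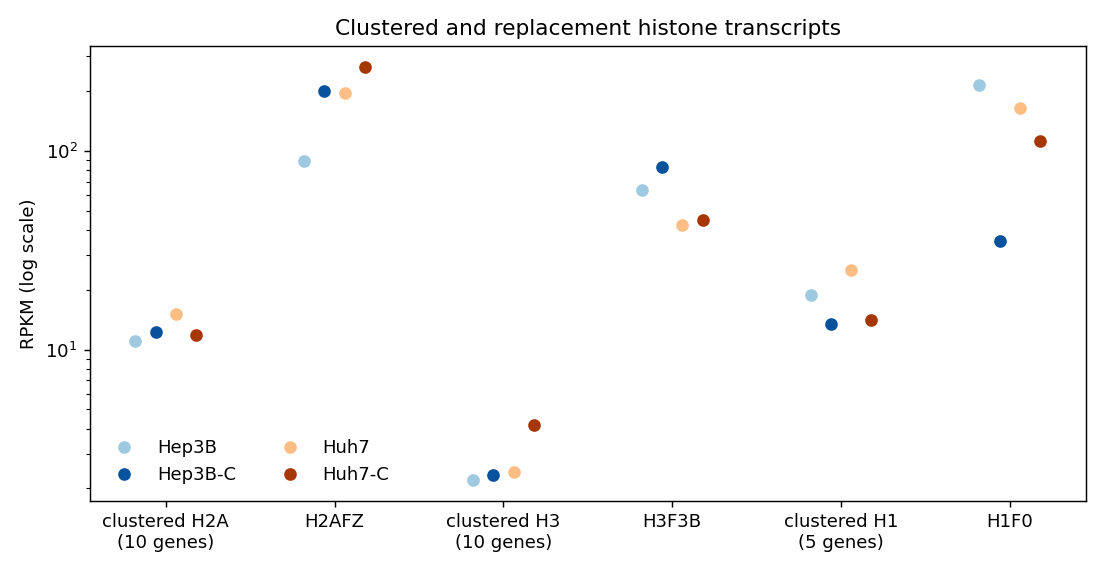
Levels in RPKM (log scale) of the replacement or solitary histone genes H2AFZ, H3F3B and H1F0 and of the summed clustered genes of the same classes in the 4 cell lines. The single gene is above the clustered sum in every line, as for H2AFZ at 200.4 RPKM and the H2A sum at 12.3 RPKM in Hep3B-C. Poly(A) selection and the handling of reads with several matches were not given.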

How the data were processed

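RNA of 4 cell lines, 1 library each, was sequenced on an Illumina Genome Analyzer II. Adapters and poor reads had been removed by the authors, who aligned the rest with NextGENe to an NCBI build older than GRCh38 and deposited raw read counts per gene as whole numbers. The annotation, strand and handling of reads with several matches were not given in the sources used here. The genes and lists were chosen with earlier results of these data known. CPM and RPKM were computed from the counts and the total gene count. Each pair was tested with the Audic-Claverie test, the tail doubled, over all genes, which compares libraries and not conditions. Summed levels have exact binomial intervals, ratios exact conditional intervals, and the plotted levels of single genes exact Poisson intervals. Both pairs were fitted with edgeR 4.0.16 (TMM, filterByExpr, parental line as a block), where genes absent from 1 pair entered as 0. DESeq2 1.42.0 was an alternative. Deviations from the group means of lines sharing a parent correlated at 0.532 over 12614 genes, and the labels give the parent. R 4.3.3, Python 3.11.15, pandas 2.3.3 and scipy 1.17.1 were used, and the scripts were tested on simulated data. Named genes were the 4 of highest summed CPM per class, those called in either pair with at least 20 counts in a library, those called in both pairs, and list genes called in both pairs or defining. Other list genes called in 1 pair were named after their values were seen. The alternatives were other library sizes, the count added, filters on counts, trends of GC and length, another test and an assumed biological spread. H3F3A was not analysed here.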

Additional observations from a re-analysis of the deposited data

Results flagged for a closer look

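The 3 results below moved one way in 1 line pair and the opposite way in the other, with 1 library per line, and the difference between the pairs was not tested. The H2B class had a log2 ratio of summed counts that was higher by 2.25 in Hep3B-C than in Huh7-C. For all 47 genes the same difference was 1.46. For HIST1H2BK alone the log2 fold changes differed by 2.74. With GC and length trends removed, the first 2 no longer moved in opposite ways, with log2 ratios in Hep3B-C and Huh7-C of -0.17 and -0.67 for H2B and of -0.58 and -0.34 for all genes. HIST1H2BK then had 0.10 and -0.38, and with the length trend alone 1.04 and -0.35. The GC content came from a transcript within 20% of the length in the files for 33 of the 47 genes, HIST1H2BK not among them.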

How the results depend on the processing

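The count of histone genes called up in Hep3B-C was 1, and became 2 under TMM or DESeq2 library sizes, 4 with the total reads listed by the study, and 0 with an assumed biological coefficient of variation of 0.4 or with GC and length trends removed. Of all genes, 13.2% were called up, and 21.63%, 22.93%, 24.19%, 0.4% and 3.96% under these settings in that order. The count called down was 2, and became 1 under TMM, DESeq2 factors, the listed reads, an exact binomial test or a minimum of 10 counts, 0 with the assumed variation, 6 with the length trend removed and 7 with GC and length trends removed. Of all genes, 30.41% were called down, and 18.08%, 16.49%, 15.1%, 29.4%, 36.97%, 1.09%, 27.65% and 25.56% under these settings in that order. In Huh7-C, the 1 call down became 0 with the assumed variation, where the share of all genes called down went from 4.15% to 0.08%. Summed log2 ratios in Hep3B-C were 0.08 for H1, 1.91 for H2B and 1.38 for all genes under TMM, and 0.25 for H1, 2.08 for H2B and 1.56 for all with the listed reads. Scaled by the total gene count and without the leading gene of the set, they were -0.0024 for H2B, -0.42 for H4 and 0.049 for all. With GC and length trends removed they were -2.29 for H1, -0.17 for H2B, -0.11 for H4 and -0.58 for all. In Huh7-C, leaving out the leading gene gave 1.07 for H1 and -1.46 for H2B, and the GC and length trends gave -0.34 for all. The 1.07 for H1 rested on genes with at most 1 count in a library of that pair. H1 in Hep3B-C and H4 in Huh7-C gave no value without the leading gene, since 1 library was then at 0.

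With GC and length trends removed, 10 of the 36 listed histone genes changed sign in Hep3B-C and 1 of 38 in Huh7-C. Among the 20 named genes, those that changed sign in Hep3B-C were HIST1H1C (-1.48), HIST1H2AM (-0.29) and HIST1H3J (-0.51) with GC and length trends removed, HIST1H2AC (-0.0024), HIST1H3J (-0.20) and HIST1H4E (-0.0024) with 5 added to each count, HIST1H2BD (0.42) under TMM, and HIST1H2BD (0.59) and HIST1H3B (0.086) with the listed reads. With the length trend alone, an alternative chosen after seeing the data, they were HIST1H1C (-0.78), HIST1H2AC (-0.75) and HIST1H4C (-0.20). In Huh7-C, HIST3H2A changed sign with GC and length trends (0.27) and with length alone (0.27). The cause was not tested.

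In the fit of both pairs, 0 histone genes were called with the parental line as a replicate block, where 9 of 11691 genes were. Without the block 0 of 11691 genes were called, so the result for histone genes was fixed there. Each library was also left out in turn without the block. The lone library of a group was then assumed to vary like the others, so calls from those fits are not given. Depth limits 40 of the 47 genes, which had no more than 8 counts in any library.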
